A study of Homo sapiens with 8 samples.

Results

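The genes described here encode 8 proteins of pre-mRNA splicing: PTBP1, HNRNPA2B1, HNRNPU, SF3B1, PRPF8, SRSF1, SON and DDX5. They were chosen by name, and each was represented by the H3K36me3 peaks that overlapped its hg19 gene span by 1 bp or more. The 8 spans, 166.4 kb in all, held 6 of the 23488 peaks called in SETD2 knockdown cells and 9 of the 35375 peaks called in control cells. The cells were HepG2, a human hepatocellular carcinoma line that stably expressed either an shRNA against SETD2 or a non-specific control shRNA. Both shRNAs came by lentivirus collected 48 and 72 h after transfection, with 4 µg/mL polybrene and selection in 1 µg/mL puromycin, so these agents were common to both conditions. Each condition had 2 H3K36me3 immunoprecipitates and 2 inputs, and each set of 2 had been merged before peaks were called. There was thus 1 value per condition, with no spread between replicates and no test of the conditions. After removal of duplicates the merged immunoprecipitates held 67053273 tags in the knockdown and 47880817 in the control, and the merged inputs held 69095038 and 67158956. The labels do not say whether replicates came from different cultures. How far SETD2 itself was depleted was not analysed here.

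SETD2 places the third methyl group on lysine 36 of histone H3 while it travels with elongating RNA polymerase II, so the mark covers the bodies of transcribed genes and is usually low at their promoters. Splicing takes place largely on the same nascent transcripts, in the spliceosome, a machine of small nuclear ribonucleoproteins (snRNPs). Regulatory proteins bind the transcript and favour or block the use of single exons. Splicing factor genes are transcribed in nearly all cell types, and H3K36me3 has itself been studied as a mark that recruits such regulators. The genes fall into heterogeneous nuclear ribonucleoproteins (PTBP1, HNRNPA2B1 and HNRNPU), core snRNP proteins (SF3B1 and PRPF8), serine- and arginine-rich factors (SRSF1 and SON) and an RNA helicase (DDX5).

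In the knockdown 6 of the 8 genes had an H3K36me3 peak, and peaks covered 67.0% of their summed length. In the control all 8 had a peak and 97.3% of the summed length was covered. SF3B1 and SRSF1 had no knockdown peak at any base of their spans. On the other 6 genes the covered share was nearly the same, 95.4% in the knockdown and 96.6% in the control. The tag density inside their peaks, relative to the filtered tags of each condition, was a median of 49.1% of the control value. Of the 9 control peaks on these genes, 7 were overlapped by a knockdown peak, against 39.5% of all control peaks of the series. Control peaks as strong as these were mostly overlapped, however. The lowest fold enrichment among the main control peaks of the 8 genes was 11.31, and of the 3107 control peaks at or above it, 90.3% had a knockdown peak (exact binomial 95% interval 89.2 to 91.3%). Fold enrichment, as the authors' caller gave it, compares immunoprecipitated tags with the local input background, and it is used here only to rank or filter peaks within 1 list.

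**Figure D1:**
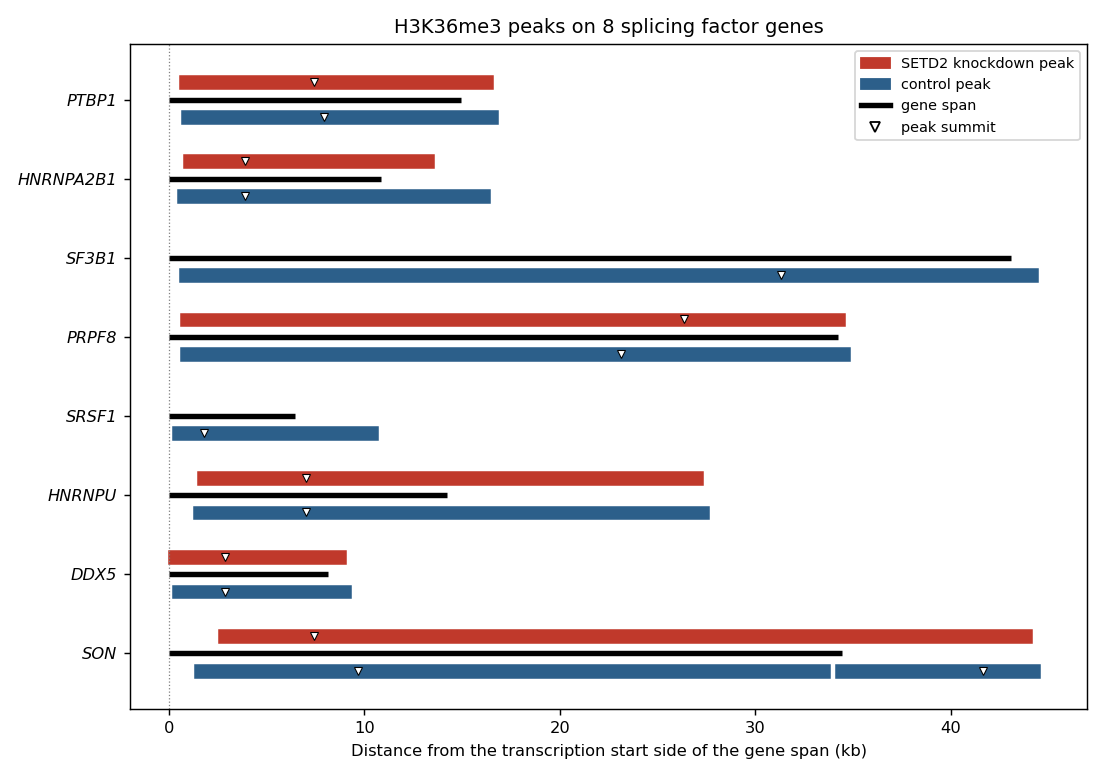
Peaks of the SETD2 knockdown (red, above) and the control (blue, below) along each gene span (black line), with the horizontal axis in kb from the transcription start side of the span and triangles at the peak summits. Peaks of the 6 genes with a call in both lists run over nearly the same stretch, and SF3B1 and SRSF1 have a control peak only.

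The peaks stopped short of the start of the gene in 5 of the 6 genes with a knockdown peak, and in all 8 genes in the control. In the knockdown the first covered base lay 447 bp inside the start-side edge of the span at PTBP1, 513 bp at PRPF8, 639 bp at HNRNPA2B1, 1377 bp at HNRNPU and 2429 bp at SON. The DDX5 peak was the exception, since in the knockdown it ran 115 bp past the edge. In the control the distance was 538 bp at PTBP1, 517 bp at PRPF8, 340 bp at HNRNPA2B1, 1174 bp at HNRNPU and 1235 bp at SON. It was 93 bp at DDX5, 96 bp at SRSF1 and 452 bp at SF3B1. The median was 576 bp over the 6 genes with a knockdown peak, and 528 bp for the same 6 in the control. The boundaries have no replicate error, and they depend on the caller and on the start site that the span was drawn from. RefSeq lists more than 1 start for DDX5, PTBP1 and SF3B1.

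The promoters of 4 of these genes are shown because they stand for both outcomes. SF3B1 and SRSF1 had no knockdown peak, PRPF8 had the largest reduction in density and HNRNPA2B1 the smallest over the called peaks. In the control their peaks began 96 bp (SRSF1) to 517 bp (PRPF8) inside the start-side edge of the hg19 span. Each sequence is 300 bases from RefSeq on GRCh38.p14, 5′ to 3′ on the gene's strand, from 250 bases before the annotated start to 50 after it. These positions were not converted to hg19 and are not the positions of the peaks, so where a peak began relative to a window is not known. Capitals mark ATGGCG, a core of the YY1 motif, or TGACGT, a core of the cAMP response element, on either strand. Neither motif was found in the SF3B1 window, which is the farther upstream of 2 listed for that gene.
SF3B1, chr2:197435044-197435343, minus strand: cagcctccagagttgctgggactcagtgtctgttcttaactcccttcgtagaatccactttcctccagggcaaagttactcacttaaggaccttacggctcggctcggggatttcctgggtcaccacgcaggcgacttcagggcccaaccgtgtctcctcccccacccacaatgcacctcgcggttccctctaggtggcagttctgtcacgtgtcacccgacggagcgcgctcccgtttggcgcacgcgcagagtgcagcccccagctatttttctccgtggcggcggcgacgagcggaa
SRSF1, chr17:58007197-58007496, minus strand: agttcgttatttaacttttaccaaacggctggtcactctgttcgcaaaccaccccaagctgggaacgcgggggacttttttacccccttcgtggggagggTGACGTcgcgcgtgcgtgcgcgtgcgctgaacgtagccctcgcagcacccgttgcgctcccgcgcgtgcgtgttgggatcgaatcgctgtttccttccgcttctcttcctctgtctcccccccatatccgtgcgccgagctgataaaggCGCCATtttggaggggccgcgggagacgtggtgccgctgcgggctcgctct
PRPF8, chr17:1684818-1685117, minus strand: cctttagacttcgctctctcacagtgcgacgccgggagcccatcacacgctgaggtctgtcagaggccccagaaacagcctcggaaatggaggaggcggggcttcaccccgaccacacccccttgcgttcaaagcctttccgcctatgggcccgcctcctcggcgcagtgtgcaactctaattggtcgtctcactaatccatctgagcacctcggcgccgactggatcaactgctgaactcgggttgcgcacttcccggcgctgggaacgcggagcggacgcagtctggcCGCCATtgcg
HNRNPA2B1, chr7:26200697-26200996, minus strand: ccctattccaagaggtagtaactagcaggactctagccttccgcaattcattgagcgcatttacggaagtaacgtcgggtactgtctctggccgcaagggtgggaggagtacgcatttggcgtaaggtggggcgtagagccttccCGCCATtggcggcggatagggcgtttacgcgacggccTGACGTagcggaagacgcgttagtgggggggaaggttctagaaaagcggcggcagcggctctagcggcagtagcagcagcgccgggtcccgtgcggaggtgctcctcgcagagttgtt

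The promoters were rich in CpG dinucleotides, taking for each gene the window farthest upstream. They held 24 to 40 CpGs with a median of 29.5, against a median of 14 over all 35116 RefSeq promoter windows. ATGGCG, read on both strands, was in 5 of the 8 (HNRNPA2B1, PRPF8, PTBP1, SON and SRSF1), against 10.7% of all windows and 18.3% of the 11904 windows with at least 24 CpGs. TGACGT was in 4 of the 8 (DDX5, HNRNPA2B1, SON and SRSF1), against 7.98% of all windows and 11.2% of the CpG-rich ones. CCGGAA, a core of the ETS motif, was in DDX5 and PTBP1, against 17.2% of all windows and 28.7% of the CpG-rich ones. CACGTG, the E-box, was in DDX5 and SF3B1, against 7.26% and 10.4%. The GC box GGGCGG was in 3 of the 8 (DDX5, HNRNPU and PTBP1), against 45.0% of all windows and 85.2% of the CpG-rich ones. The TATAAA box was in none of the 8, against 11.5% of all windows and 2.66% of the CpG-rich ones. These counts depend on the window taken: other listed start windows hold ATGGCG for SF3B1 and DDX5, and TATAAA for DDX5. No 2 matches overlapped each other in the printed windows, and the matches describe these windows only.

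Tag density below is the number of immunoprecipitated tags per kb of peak and per 1000000 filtered tags, taken over the peaks that touch a gene, with a Poisson 95% interval for counting error. It is per length but was not scaled to DNA copy number, which differs between the chromosomes of HepG2. The scaling is to each condition's own filtered tags, of which 12.8% lay in peaks in the knockdown and 42.0% in the control. A density is thus a share of its own library, and no absolute amount of the mark can be read from a ratio. In a bulk lysate, fewer cells carrying the mark and less of the mark in each cell cannot be told apart. For each gene with a peak in both lists the ratio of knockdown over control is given in log2, with an exact conditional binomial 95% interval that covers counting error alone. As a background, 7543 pairs of peaks across the series overlapped each other by at least 50%. An exact two-sided conditional binomial test, with Benjamini-Hochberg adjustment over all pairs, called the knockdown density lower in 80.5% of these at an adjusted p under 0.05 and higher in 0.106%. That test compares 2 merged libraries and not the conditions. All 6 pairs on these genes were among the lower ones, with an adjusted p of 2.0e-76 for HNRNPA2B1 and smaller values for the other 5. The count of 6 is close to what a share of 80.5% gives, so the sizes of the reductions say more than the calls.

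**Figure D2:**
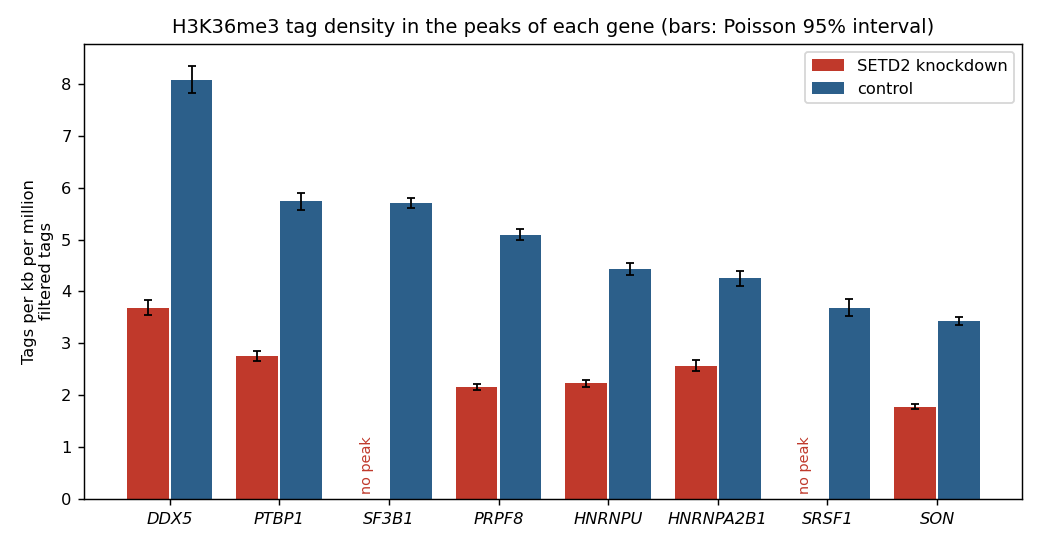
H3K36me3 tag density (tags per kb of peak and 1000000 filtered tags) over the peaks of each gene in the SETD2 knockdown (red, left) and the control (blue, right), with Poisson 95% intervals, in order of the control value. The knockdown bar is the lower one at each of the 6 genes that have both, and no knockdown density can be given for SF3B1 and SRSF1.

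The hnRNP genes all kept a peak in the knockdown, at lower density. PTBP1 (chr19:797392-812327 in hg19, as are all spans and peaks here, plus strand) binds polypyrimidine tracts and mostly represses exons. It had a density of 2.75 in the knockdown (2.65 to 2.85), against 5.74 in the control (5.57 to 5.91). The intervals are far apart, and the log2 ratio was -1.06 (-1.13 to -0.99), or 48.0% of the control density. Its knockdown peak was 16.2 kb wide with 2986 tags, and its control peak 16.3 kb wide with 4489 tags. With a fold enrichment of 35.69 the control peak ranked 3 of 35375, and the knockdown peak, at 11.37, ranked 38 of 23488. Both peaks ran on past the 3′ end of the span, by 1.69 kb in the knockdown and 1.95 kb in the control, towards PLPPR3, the next protein-coding gene on that side in RefSeq.

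HNRNPA2B1 (chr7:26229556-26240413, minus strand), which encodes the RNA-binding proteins A2 and B1, had the smallest reduction of the 6 over the called peaks. Its density was 2.56 in the knockdown (2.46 to 2.67), against 4.25 in the control (4.11 to 4.40), a log2 ratio of -0.73 (-0.81 to -0.65). The knockdown peak was 13.0 kb wide and the control peak 16.1 kb, and they ran 2.77 and 5.59 kb past the 3′ end of the gene. With both tag counts taken over the union of the bounds, the log2 ratio was -1.04. That calculation takes bases outside a called peak as having 0 tags, so the narrower knockdown peak lowers it by construction, and the tags there are not known. The summit stayed in place, 3.87 kb from the start side in the knockdown and 3.89 kb in the control.

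HNRNPU (chr1:245013602-245027844, minus strand), also known as scaffold attachment factor A, binds nuclear RNA and chromatin. It had a density of 2.23 in the knockdown (2.16 to 2.30), against 4.43 in the control (4.32 to 4.55), a log2 ratio of -0.99 (-1.05 to -0.93). The peak was a wide one in both lists, 26.0 kb with 3887 tags in the knockdown and 26.5 kb with 5620 tags in the control. Of the peak, 49.5% in the knockdown and 49.3% in the control lay inside the gene, and the rest ran 13.2 and 13.4 kb past its 3′ end. The next protein-coding gene on that side in RefSeq is COX20, and how much of the signal belongs to it was not tested. No other peak of either list lay within 100 kb of HNRNPU.

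The core snRNP genes went separate ways. PRPF8 (chr17:1553923-1588176, minus strand), the large U5 snRNP protein at the catalytic centre of the spliceosome, had a peak over 98.5% of its span in both lists. Its density was 2.15 in the knockdown (2.09 to 2.21), against 5.10 in the control (4.99 to 5.21), and the log2 ratio of -1.24 (-1.29 to -1.19) was the lowest of the 6. That is 42.3% of the control density, and 2.47% of all matched pairs of the series had a lower ratio. The peaks were 34.1 kb wide with 4927 tags in the knockdown and 34.4 kb with 8391 tags in the control. They began within 4 bp of each other at the start side. The knockdown summit was 26.4 kb from the start side and the control summit 23.1 kb.

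SF3B1 (chr2:198256698-198299771, minus strand), the largest subunit of the U2 snRNP part that recognises the branch point, is recurrently mutated in myelodysplastic syndromes. It had no knockdown peak. In the control, 1 peak of 44.1 kb with 12048 tags (chr2:198255232-198299319) covered 99.0% of the gene. With a tag density of 5.71 (5.61 to 5.81) it overlapped the interval of the PTBP1 peak in the control, and 99.4% of control peaks were narrower. Its fold enrichment of 19.63 ranked 407 of 35375. Among the 21412 control peaks that no knockdown peak overlapped, it ranked 23 by tags, 39 by fold enrichment and 64 by width. Knockdown peaks were called near the gene: within 100 kb on either side, 4 other peaks covered 30.2 kb in the knockdown and 5 covered 63.5 kb in the control. The nearest lay 38.2 kb beyond the start side in the knockdown and 22.1 kb beyond it in the control.

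The lack of a knockdown call at SF3B1 does not give a level, because the deposited tables hold tags only for called peaks. Over the control list, the share of peaks with a knockdown peak was 91.8% (89.9 to 93.5%) among those with more than 2000 and up to 3000 tags, and 65.4% (60.95 to 69.7%) among the 477 with more than 5000. Of the 41 control peaks with at least as many tags as SF3B1, 18 had a knockdown peak, or 43.9% (28.5 to 60.3%). Of the 409 with at least its fold enrichment, 370 had one, or 90.5% (87.2 to 93.1%). Those 409 peaks reached down to 518 tags. Of the 19 with at least the tags and also the fold enrichment of SF3B1, 11 had a knockdown peak, or 57.9% (33.5 to 79.7%). The call was thus often missing among the peaks with most tags, also at high enrichment. It was seldom missing among all peaks of at least the same enrichment, most of which held fewer tags. The lowest density of any knockdown peak of 20 kb or more was 1.04, and the part that the size of the peak had in the missing call was not tested. On chromosome 2 as a whole 27.4% of control peaks had a knockdown peak.

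**Figure D3:**
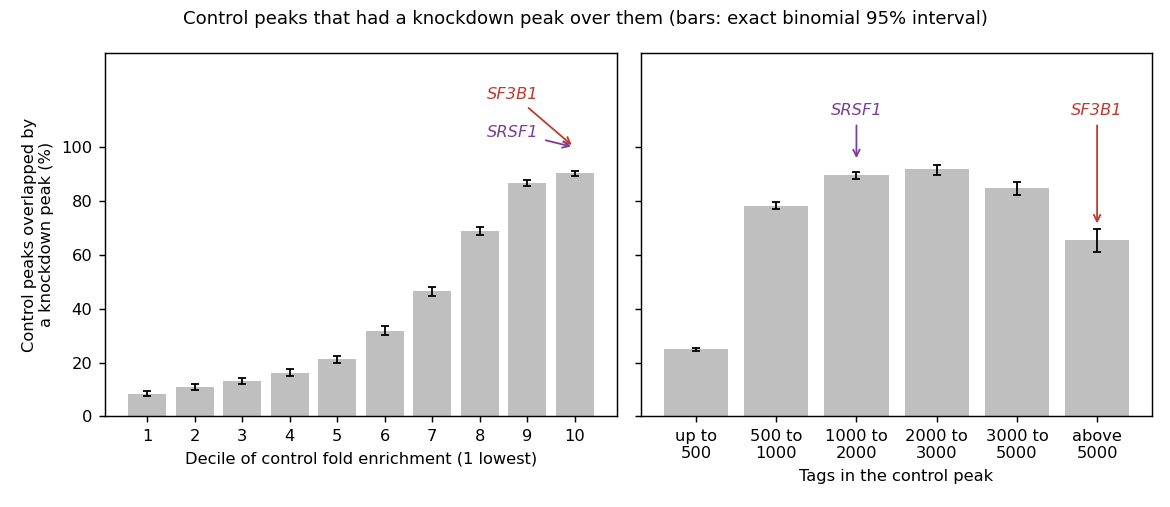
Share of control peaks overlapped by a knockdown peak, in percent with exact binomial 95% intervals, by decile of control fold enrichment (left) and by tags in the control peak (right). Arrows mark the bins that hold the control peaks of SF3B1 and SRSF1, both in the highest decile by fold enrichment, where 90.4% of peaks had a knockdown peak.

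Of the serine- and arginine-rich factors, SRSF1 had no knockdown peak and SON had one. SRSF1 (chr17:56078280-56084707, minus strand), which binds exonic enhancers and favours the use of nearby splice sites, is the shortest of the 8 genes, with a span of 6.43 kb. No knockdown peak touched it. Its control peak (chr17:56073951-56084611) was 10.7 kb wide with 1880 tags and a fold enrichment of 11.31, and covered 98.5% of the gene. The control density of 3.68 (3.52 to 3.85) was higher than that of 98.4% of control peaks. The peak ran 4.33 kb past the 3′ end of the span, towards VEZF1, the next protein-coding gene on that side in RefSeq, and 59.4% of it lay inside. Unlike at SF3B1, most control peaks with at least as many tags had a knockdown peak, 2028 of 2406 or 84.3% (82.8 to 85.7%). Within 100 kb of SRSF1 there were 2 further peaks in each list, covering 20.2 kb in the knockdown and 24.8 kb in the control.

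SON (chr21:34915350-34949812, plus strand), a large scaffold protein of nuclear speckles, had 1 knockdown peak of 41.8 kb where the control had 2 peaks, of 32.7 and 10.6 kb, with 120 bases between them. The density was 1.78 in the knockdown (1.73 to 1.83), against 3.43 over both control peaks (3.36 to 3.52), which gives a log2 ratio of -0.95 (-1.002 to -0.90). Against the first control peak alone, with a density of 3.86, it was -1.12 (-1.17 to -1.06). Of the knockdown peak, 75.3% overlapped that control peak, so the densities compared cover unlike stretches. Knockdown tags in the remainder are not known separately. The second control peak had a tag density of 2.11, and only 4.19% of it lay inside the gene. Beyond the 3′ end, the peaks ran for 9.76 kb in the knockdown and 10.1 kb in the control, on the side where DONSON is the next protein-coding gene in RefSeq. The knockdown peak ranked 136 of 23488 by fold enrichment, with 9.64, but its score of 108.92 was higher than that of only 36.7% of the list. Its false discovery rate (FDR), as deposited by the authors, was 77.4%, and the other 5 knockdown peaks on these genes had 0 to 1.67%. Low scores also occurred at other strongly enriched, tag-rich peaks, though not at most of them. In the knockdown list, where enrichment was at least 8-fold, 28 of 84 peaks above 3000 tags scored under 500, as did 34 of 275 holding 1000 to 3000 tags. The median scores of these 84 and 275 peaks were 905.57 and 1851.64, both above that of SON. Its low score and high FDR thus stood beside a high fold enrichment, and the reason was not tested. In the whole knockdown list 5.30% of peaks had an FDR of 5% or less.

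DDX5 (chr17:62494374-62502484, minus strand), a DEAD-box RNA helicase also known as p68, was the most densely marked of the 6 genes with a knockdown peak, and of all 8 in the control. Its tag density was 3.69 in the knockdown (3.54 to 3.84), against 8.08 in the control (7.82 to 8.35). Those values ranked 16 of 23488 in the knockdown list and 14 of 35375 in the control list. The log2 ratio was -1.13 (-1.21 to -1.06), or 45.6% of the control density. The peaks were narrow for this group, 9.21 kb with 2279 tags in the knockdown and 9.25 kb with 3580 tags in the control, and their summits lay 2.85 and 2.87 kb from the start side. CEP95 overlaps DDX5 in RefSeq, and tags were not separated by gene.

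Set in order, the knockdown densities of the 6 genes ran from DDX5 through PTBP1, HNRNPA2B1, HNRNPU and PRPF8 to SON, with overlapping intervals between PTBP1 and HNRNPA2B1 and between HNRNPU and PRPF8. The control densities of all 8, with both SON peaks summed, ran from DDX5 through PTBP1, SF3B1, PRPF8, HNRNPU, HNRNPA2B1 and SRSF1 to SON. The intervals of PTBP1 and SF3B1 overlapped, as did those of HNRNPU and HNRNPA2B1, and those of other neighbours in this order did not. PRPF8 was below HNRNPA2B1 in the knockdown, whereas it was above both HNRNPU and HNRNPA2B1 in the control. The highest density was 2.07 times the lowest in the knockdown and 2.35 times in the same 6 genes in the control. The last place of SON and the control value of 2.35 rest on its summed peaks. The first SON control peak alone had a density of 3.86 (3.77 to 3.96). That is above SRSF1 at 3.68 (3.52 to 3.85), with overlapping intervals, and would make the control range smaller.

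Compared with the rest of the series, the 6 genes had lower ratios than most matched pairs. Their median log2 ratio was -1.03 with both SON control peaks summed, and -1.09 over their 6 matched pairs. Over all 7543 pairs the median was -0.59 (quartiles -0.81 and -0.38). The first control peak of each was in the quartile of pairs with the highest control fold enrichment, from 10.85 up, while the second SON control peak had a fold enrichment of 7.99. In that quartile the median was -0.88 (quartiles -1.05 and -0.72). Among the 1886 pairs of that quartile the share with a still lower ratio was 8.80% for PRPF8, 16.9% for DDX5, 18.2% for the main SON pair, 23.9% for PTBP1, 32.8% for HNRNPU and 73.3% for HNRNPA2B1. So 5 of the 6 lay below the median of that quartile, inside its range. The SON pair sets its whole knockdown peak against the first control peak alone. Its ratio, which also enters the median of -1.09, thus compares unlike stretches. With both control peaks summed the SON ratio was -0.95, also below the median of that quartile. The enrichment that ranks the pairs and the denominator of the ratio come from the same control tags, and no test of the group was made. Densities outside all peaks were 0.337 in the knockdown and 0.235 in the control. With these subtracted the median log2 ratio of the 6 genes was -1.17.

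**Figure D4:**
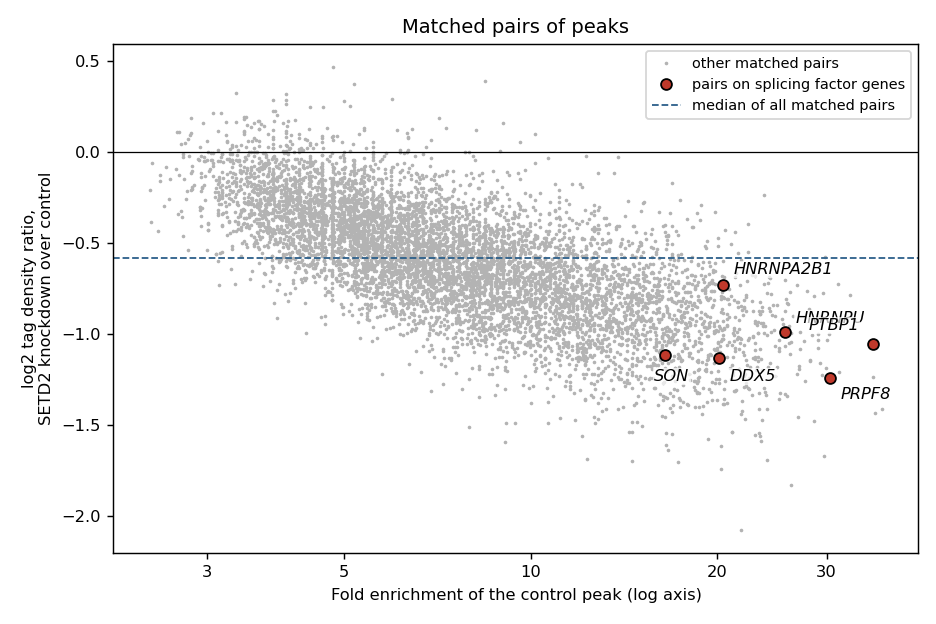
log2 ratio of tag density, SETD2 knockdown over control, against the fold enrichment of the control peak (log axis) for all 7543 matched pairs of peaks, with the 6 pairs on splicing factor genes in red. All 6 lie below the median of all pairs at -0.59, in the part of the plot with high control enrichment.

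Within the genes that had a peak, the uncovered bases lay near the start, apart from the 120 bases between the control peaks of SON. With each span cut into 5 equal sections from the start side, sections 2, 3 and 4 were covered in full at all 6 genes with a peak in the knockdown and at all 8 in the control. Section 1 was covered to between 51.7% (HNRNPU) and 100% (DDX5) in those 6 in the knockdown, and to between 58.8% (HNRNPU) and 94.8% (SF3B1) in the 8 in the control. The SON domain had the largest shift at this end, with 64.8% of section 1 covered in the knockdown and 82.1% in the control. At the other end peaks ran past the span at every gene that had a peak. In the knockdown they did so by 0.379 kb (PRPF8) to 13.2 kb (HNRNPU). In the control the reach was 0.656 kb (PRPF8) to 13.4 kb (HNRNPU). How much of the signal there belongs to neighbouring genes was not tested.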

How the data were processed

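H3K36me3 ChIP-seq and input libraries of HepG2 cells (4 groups of 2) were analysed from the authors' peak tables, 1 per condition. Per the submitters' processing notes, the tools included FastQC 0.11.5 and Bowtie 1.1.2, with hg19 as the build. Peaks were called by MACS 1.4.2 on merged replicates at a p-value limit of 1e-05, with 1 duplicate tag per position, per the file headers. The deposited tag counts are whole, unnormalized immunoprecipitated tags per peak. The deposited score is the log10 p-value of a peak times minus 10. The deposited fold enrichment is a ratio to the local input background, and the deposited FDR is in percent. Shorter lists were checked to hold exactly the peaks with an FDR of 5% or less.

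Gene spans were fixed on hg19. Strand, neighbouring genes and promoter sequences came from RefSeq GRCh38.p14, where all 8 symbols matched, and no coordinate was converted. Each density is tags over peak length and filtered tags, and where several peaks lay on a gene their tags and lengths were summed. All 8 genes are named. The genes and lists were chosen with earlier results of these data known. Other splicing genes, the genes most alike and liver markers were not analysed here, since this needs gene positions on hg19. The pair test was first run on simulated Poisson tags with known ratios. That simulation had no variation between replicates, so it cannot show how the test behaves under such variation. Alternatives were peak thresholds, overlap, span, depth, background and peak bounds. Python 3.11.15, pandas 2.3.3, NumPy 2.4.6, SciPy 1.17.1 and matplotlib 3.10.9 were used. All intervals cover counting error only.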

Additional observations from a re-analysis of the deposited data

How the results depend on the processing

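The number of genes with a knockdown peak was 6. It was 5 with an FDR of 5% or less (also in the shorter lists) and with a score of 500 or more. SON dropped out there despite a fold enrichment of 9.64, and the reason for its low score was not tested. Under those 3 settings peaks covered 47.7% of the summed spans in the knockdown, the median start-side distance was 513 bp in the knockdown, and the median log2 ratio was -1.06. Pairs lower and higher in the knockdown then numbered 825 and 4 (FDR, shorter lists) or 1812 and 3 (score of 500 or more), and 2006 and 3 with a fold enrichment of 5 or more, as fewer pairs were tested. Spans extended by 5000 bp were covered to 52.8% in the knockdown and 80.96% in the control, with a median ratio of -0.95. The median ratio was -1.17 with the density outside peaks subtracted and -1.09 over reciprocal pairs only. Gene by gene, all 57 log2 ratios under the alternatives were below 0, from -1.42 to -0.71, and 48 stayed inside the counting interval. Many of the 48 could not differ, because dropping peaks leaves the ratio unchanged where a gene keeps its peaks. The shorter lists also repeat the FDR setting, so the count of 48 is no measure of stability. The other 9 moved outside the interval, among them every gene with the density outside peaks subtracted. Ratios over the union of bounds take uncalled bases as 0 tags. No paired analysis was possible because peaks were called on merged replicates, so no replicate could be left out either.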
